A study of Mus musculus with 2 samples.

Results

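Dppa2, Dppa3, Dppa4 and Dppa5a are the developmental pluripotency associated genes of the mouse that are read out in cultured stem cells, and they are described here in 2 single-cell RNA libraries. The 4 genes were chosen by symbol, out of 27998 genes in the count table, with earlier results of these data known. The cells were E14, an established male line of mouse embryonic stem cells. The strain label of both libraries reads C57BL/6. Both libraries came from cells kept on gelatin, with no feeder cells, in a 2i/LIF medium, which holds 2 kinase inhibitors and leukaemia inhibitory factor and keeps stem cells in the naive state. The DMSO group received the solvent for 24 h. The Idoxuridine group received, for the same 24 h, a thymidine analogue that dividing cells take up into DNA, at 10 µM by the treatment label and at 10 mM by a protocol field. The study used the drug to raise gene expression noise, that is, differences between cells. There was 1 library per group, so no difference below has a replicate check, no test between treatments was possible, and the spread between cultures is unknown.

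The shared name of these genes reflects how they were found, as transcripts of pluripotent cells, and not a common mechanism. Dppa3, also called Stella or PGC7, is a regulator of DNA methylation in the egg and early embryo. In cells it binds Uhrf1, the factor that brings the maintenance methyltransferase Dnmt1 to DNA. Dppa2 and Dppa4 are nuclear proteins with a SAP domain that act as a pair, bind gene promoters that are poised in stem cells, and promote genes of the 2-cell embryo through the transcription factor Dux. Dppa5a, also called Esg1, is a small RNA-binding protein with a KH domain and a classic marker of embryonic stem cells.

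The counts are of unique molecular identifiers (UMIs), each standing for 1 captured transcript end. They came to 40818344 over the 811 DMSO cells (median 44502 per cell) and 30454626 over the 742 Idoxuridine cells (median 37425). The median mitochondrial share was 2.56% and 2.81% of UMIs, and nuclear-retained RNAs took a median of 0.319% and 0.507%. The libraries shared 2 cell barcodes. Summed per cell at a fixed depth of 23500 UMIs, general pluripotency genes had medians of 133 (DMSO) and 102 (Idoxuridine), so markers of the labelled cell type were present in both. Fibroblast genes summed to a median of 18 and 13 UMIs. In that list 5 of 13 genes had no UMI in DMSO and 1 had none in Idoxuridine.

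Dppa3 and the other 3 genes went in opposite directions. Dppa3 was nearly silent in DMSO and stood above Dppa2 and Dppa4 in Idoxuridine, while Dppa2, Dppa4 and Dppa5a were each lower in Idoxuridine. The level of a gene is given as UMIs per 1000000 UMIs of the library (CPM), with a 95% interval for counting error only. Since each UMI marks 1 transcript end, CPM does not scale with transcript length. Comparing genes by CPM still takes equal capture and read assignment as given, which was not measured. A gene was called higher or lower when it differed by at least 0.5 log2 with intervals that did not overlap. Of the 10380 genes that reached 200 UMIs in the sum of the libraries, 18.8% were called higher and 4.2% lower in Idoxuridine. The median log2 ratio of these genes was 0.09, and -0.12 with TMM scaling, which assumes that most genes do not differ. Of the genes called, 81.7% were higher, against 49.9% with TMM and 70.4% with median-of-ratios scaling.

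Dppa3 had 194 UMIs in DMSO, or 4.75 CPM (4.11 to 5.47), and 2985 in Idoxuridine, or 98.0 CPM (94.5 to 102). That is a log2 ratio of 4.37 (4.16 to 4.58), a 20.6-fold higher level, and 19 of the 10380 genes had a higher ratio. The gene lies on the plus strand of chromosome 6, from 122626410 to 122630272 in GRCm38.

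Dppa4 had 4945 UMIs in DMSO, or 121 CPM (118 to 125), while Idoxuridine had 2268 UMIs, or 74.5 CPM (71.4 to 77.6). Its log2 ratio was -0.70 (-0.77 to -0.63), and 179 genes (1.72%) had a lower ratio. Dppa2, its partner, stood at 76.1 CPM (73.5 to 78.9) and 54.8 CPM (52.2 to 57.5). The log2 ratio of Dppa2, -0.48 (-0.56 to -0.39), did not reach 0.5 in size under this scaling, but did with TMM (-0.69) and with median-of-ratios scaling (-0.56). Dppa2 gave 0.629 UMIs (0.601 to 0.657) for each UMI of Dppa4 in DMSO and 0.735 (0.690 to 0.784) in Idoxuridine, so within the pair Dppa4 was the one that differed more. Both genes are on the plus strand of chromosome 16, Dppa4 from 48283733 to 48294237 and Dppa2 from 48303908 to 48319723, 9.67 kb apart.

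Dppa5a was by far the most abundant of the 4. It had 62736 UMIs in DMSO, or 1537 CPM (1525 to 1549). In Idoxuridine it had 30683, or 1008 CPM (996 to 1019). The log2 ratio was -0.61 (-0.63 to -0.59). In DMSO 86 genes of the table had a higher CPM than Dppa5a, and in Idoxuridine 135 did. It lies on the minus strand of chromosome 9, from 78367052 to 78368177.

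The order of levels was therefore Dppa5a, Dppa4, Dppa2 and Dppa3 in DMSO, and Dppa5a, Dppa3, Dppa4 and Dppa2 in Idoxuridine, and no neighbours in either order had overlapping intervals. Dppa5a made up 88.4% of the UMIs of the 4 genes in DMSO and 81.6% in Idoxuridine. Dppa3 made up 0.273% and 7.94%. Dppa1, the only other gene of the table whose symbol starts with Dppa, had no UMI in 811 DMSO cells, which allows up to 0.370% of cells with a UMI at this depth and does not limit the share of cells that express it, and 4 UMIs in Idoxuridine. No annotated gene overlaps any of the 4. GENCODE M21 also lists Dppa3-ps, a pseudogene of Dppa3, and Dppa5b and Dppa5c, pseudogenes related to Dppa5a. None of these is in the count table, and how reads from such copies were assigned was not given in the sources used here, so the counts of Dppa3 and Dppa5a are less certain than those of Dppa2 and Dppa4.

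**Figure D1:**
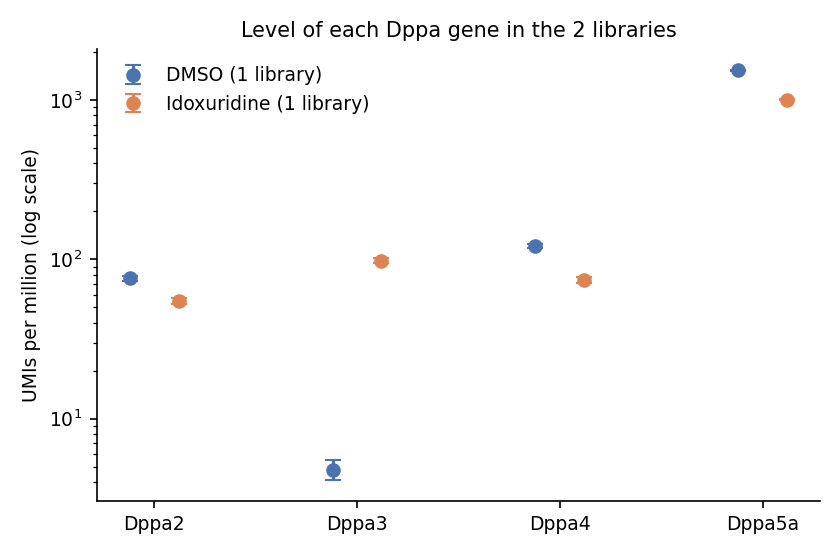
Level of the 4 Dppa genes in CPM (log axis), 1 library per treatment; points are the summed level and bars the exact Poisson 95% interval, which covers counting error only. Dppa3 moves from 4.75 CPM in DMSO to 98.0 CPM in Idoxuridine, while the other 3 genes are lower in Idoxuridine.

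The share of cells in which a gene was seen was compared after each cell had been thinned to 23500 UMIs, which left out 47 DMSO cells and 94 Idoxuridine cells that were shallower and kept 764 and 648. Dppa3 had a UMI in 7.35% of DMSO cells (5.58% to 9.41%) and in 58.1% of Idoxuridine cells (54.3% to 62.0%). Unthinned, the shares were 11.8% (96 of 811 cells) and 63.2% (469 of 742 cells). Dppa3 was thus picked up in a majority of treated cells but far from all of them, whereas Dppa5a was seen in nearly every cell of both libraries, with 99.9% under DMSO and 99.8% under Idoxuridine.

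Dppa4 had a UMI in 92.6% of DMSO cells (90.4% to 94.3%) and 74.7% of Idoxuridine cells (71.2% to 78.0%), with unthinned shares of 98.0% and 84.1%. Dppa2 had one in 81.2% (78.2% to 83.9%) and 66.1% (62.3% to 69.7%), with unthinned shares of 94.5% and 79.6%. These libraries hold no cell type known to lack these genes, so the share that free RNA in the droplets can give was not measured. In bulk sums like the CPM above, fewer cells with the RNA and less RNA per cell cannot be told apart, and shares of cells with a UMI do not separate them either. Cells with 3 Dppa3 UMIs or more numbered 14 of 764 in DMSO and 192 of 648 in Idoxuridine.

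The distribution of Dppa3 over Idoxuridine cells was long-tailed. In a random thinning to the fixed depth, 267 of 648 cells had no Dppa3 UMI, the median was 1, the 90th percentile 7 and the highest cell had 29. The exact thinned share at 0 was 41.9%, where a Poisson distribution of the same mean (2.38 UMIs) gives 9.26%. The 10% of cells highest for Dppa3 held 49.5% of its UMIs, against 22.8% for that Poisson, and 67 cells held 50% of all its UMIs. In DMSO the gene was already uneven: 711 of 764 cells had none, the highest had 8, and 13 cells held 50% of its UMIs. The 14 DMSO cells with 3 UMIs or more had a median of 35799 UMIs before thinning and the 711 without Dppa3 had 46454, so these few cells were not deeper ones.

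**Figure D2:**
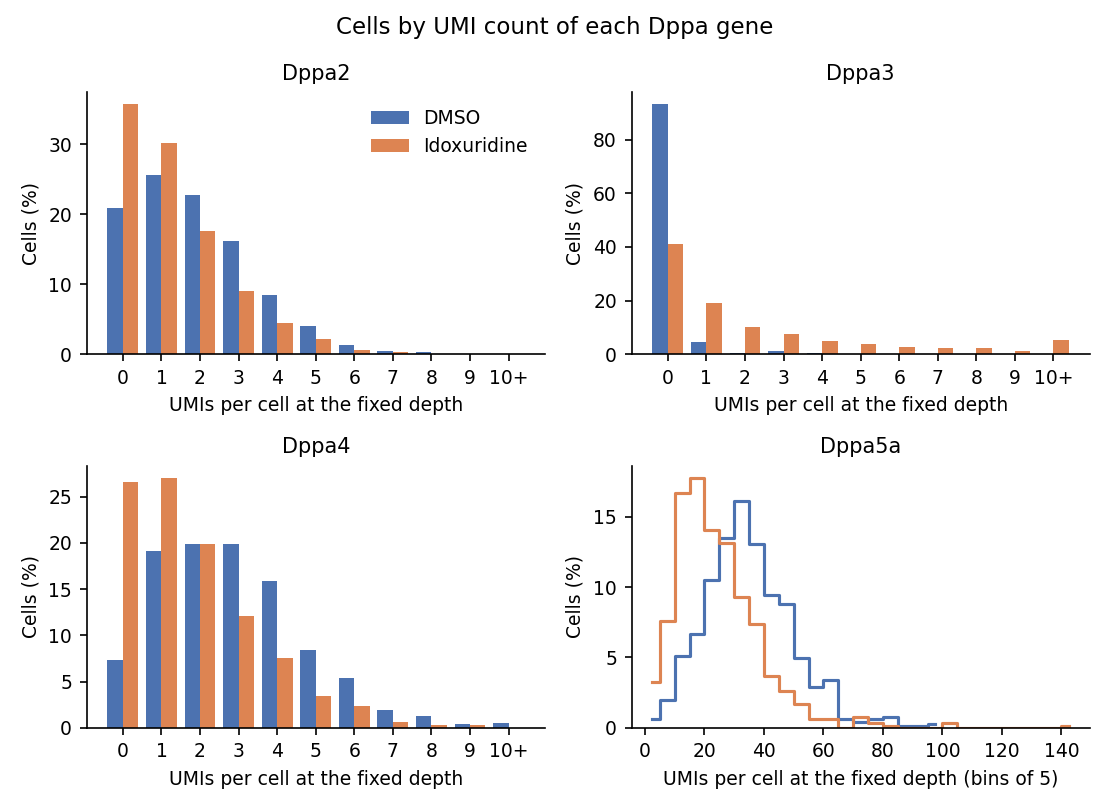
Percent of cells by UMI count of each gene after thinning to 23500 UMIs per cell (764 DMSO cells, 648 Idoxuridine cells, 1 library each; counts of 10 or more are pooled for Dppa2, Dppa3 and Dppa4, and Dppa5a is in bins of 5). Dppa3 spreads from a peak at 0 in DMSO to a tail that reaches 29 UMIs in Idoxuridine, while the other genes shift towards lower counts.

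The spread between cells was measured by the Fano factor, a gene's variance across cells divided by its mean, which is 1 where counting alone sets the spread. Over the 7316 genes with a mean of at least 0.25 UMI in both libraries, the median was 1.08 under DMSO and 1.14 under Idoxuridine, and 2.54% of genes were at least 0.5 log2 higher in Idoxuridine. Dppa2, Dppa4 and Dppa5a are among these genes, and none of the 3 reached 0.5. Dppa4 had Fano factors of 1.17 and 1.51 (log2 ratio 0.37, with 333 genes higher), and Dppa2 of 1.19 and 1.38 (0.20, with 1127 genes higher). For these 2 genes the variance of cells was close to counting in DMSO. After the counting part is taken out, the squared coefficient of variation went from 0.0576 to 0.294 for Dppa4 and from 0.106 to 0.292 for Dppa2, so the pair had nearly the same relative spread in Idoxuridine.

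Dppa5a had much the largest variance beyond counting among the 3, with Fano factors of 6.71 and 8.91 (log2 ratio 0.41, with 266 genes higher). Its lowest 10% of cells lay at or below 16 UMIs in DMSO and 9 in Idoxuridine, the median cell had 33 and 21 UMIs, and the highest had 99 and 141. Its counting-corrected squared coefficient of variation was 0.165 in DMSO and 0.336 in Idoxuridine. With raw UMIs, which carry the differences in depth between cells, its Fano ratio was -0.80 in place of 0.41.

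Dppa3 had too low a mean in DMSO (0.131 UMI per cell) for that set of genes. Dppa3 had Fano factors of 2.69 (DMSO) and 6.50 (Idoxuridine), a log2 ratio of 1.28. Relative to its mean, the spread went the other way: the counting-corrected squared coefficient of variation was 12.9 in DMSO and 2.31 in Idoxuridine, a log2 ratio of -2.48. Dppa3 was thus more variable in absolute UMIs and less variable per unit of mean in the treated library.

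Across single Idoxuridine cells, Dppa3 did not run with its namesakes. Spearman's rho with Dppa3 over the 648 cells was -0.151 for Dppa4, -0.111 for Dppa5a and -0.0634 for Dppa2. In the 764 DMSO cells these values were -0.0180, -0.0600 and 0.0128, with Dppa3 at 0 in 711 cells. The cells of a library share its preparation and all were thinned to the same depth, and these correlations are given as a description, with no test. All of them are weak, and in sparse counts a weak correlation is no finding. As a scale, rho with Dppa3 over all 9822 other genes seen in at least 10% of Idoxuridine cells had a median of 0.000129, with 1% of genes below -0.125 and 1% above 0.122. A lower rho was had by 38 genes than Dppa4, by 170 than Dppa5a and by 939 than Dppa2. With a second random thinning the values were -0.119 for Dppa4, -0.174 for Dppa5a and -0.0209 for Dppa2, with 118, 18 and 3353 genes lower. The rho values thus differ between draws by about as much as they differ from each other.

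In cells with 0, with 1 to 2 and with 3 or more Dppa3 UMIs (267, 189 and 192 Idoxuridine cells), the mean of Dppa4 was 1.96 ± 1.75, 1.82 ± 1.75 and 1.35 ± 1.39 UMIs (SD over cells). The mean of Dppa5a was 24.3 ± 13.9, 24.4 ± 14.3 and 21.9 ± 15.9. For Dppa2 it was 1.35 ± 1.43, 1.25 ± 1.27 and 1.18 ± 1.33. All these differences are smaller than the SD over cells, so single cells of the classes overlap widely. The SD is not the error of a class mean, and the differences between means were not tested. The median total UMIs of the 3 classes were 37361, 40883 and 39832. Dppa4 had a UMI in 69.6% (64.7% to 74.1%) of the 381 Idoxuridine cells with Dppa3 and in 79.0% (73.6% to 83.8%) of the 267 without. Dppa2 had one in 64.3% (59.3% to 69.1%) and 64.4% (58.4% to 70.2%).

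Dppa2 and Dppa4 had a weak positive rho with each other, higher in Idoxuridine than in DMSO cells by value. Their rho was 0.183 over Idoxuridine cells and 0.0765 over DMSO cells, and the difference was not tested. Of 9822 genes, Dppa4 had the highest rho with Dppa2 in Idoxuridine, and Dppa2 the second highest with Dppa4, after Lyplal1 (0.187). On unthinned CPM in the same cells the rho of the pair was 0.282 in Idoxuridine and 0.108 in DMSO, and with a second thinning 0.193 and 0.0749. In both of these each gene was the other's highest in Idoxuridine, ahead of all other genes. In DMSO 294 genes had a higher rho with Dppa2 than Dppa4 had. Of the Idoxuridine cells with a Dppa2 UMI, 76.5% (72.1% to 80.5%) had one of Dppa4, against 68.0% (61.5% to 73.9%) of those without. At the low end, Dppa3 had the lowest rho with Dppa4 of all 9822 genes in the first thinning, but 23 genes were lower in the second and 33 on unthinned CPM.

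**Figure D3:**
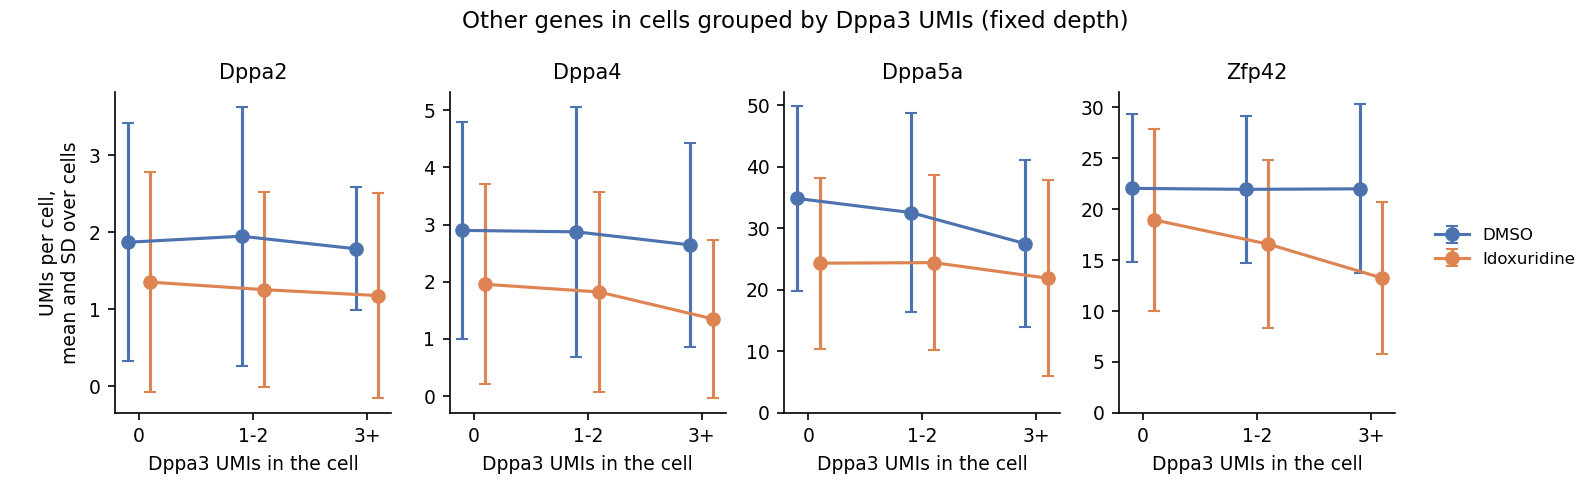
Mean UMIs per cell (± SD over cells, fixed depth) of Dppa2, Dppa4, Dppa5a and Zfp42 in cells with 0, 1 to 2, or 3 or more Dppa3 UMIs (711, 39 and 14 DMSO cells; 267, 189 and 192 Idoxuridine cells). In Idoxuridine cells the mean of Zfp42, shown because it had the lowest rho with Dppa3, is 18.9, 16.6 and 13.2 UMIs over the 3 classes. For all 4 genes the class means differ by less than the SD of single cells, which is not the error of a mean.

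The gene with the lowest rho with Dppa3 across Idoxuridine cells was Zfp42, which encodes the naive marker Rex1. This rho was -0.297 in Idoxuridine and 0.00363 in DMSO, where few cells had Dppa3. Zfp42 had a mean of 18.9 ± 8.92, 16.6 ± 8.27 and 13.2 ± 7.47 UMIs in Idoxuridine cells with 0, 1 to 2 and 3 or more Dppa3 UMIs. In DMSO the same means were 22.0 ± 7.25, 21.9 ± 7.23 and 22.0 ± 8.28. Next lowest were Klf3 (-0.217), the threonine dehydrogenase gene Tdh (-0.205), the cell cycle transcription factor gene Mybl2 (-0.197), the tetraspanin gene Cd81 (-0.197), Hebp1 (-0.182), the mitochondrial protein gene Chchd10 (-0.181), Rab4a (-0.179), the adenosine deaminase gene Ada (-0.176) and Myof (-0.175). With a second thinning Zfp42 had -0.311, Tdh -0.217, Klf3 -0.160 and Rab4a -0.102, so the order after Zfp42 moved with the draw. Zfp42 and Tdh belong to the naive list used below, and Mybl2 to the general pluripotency list.

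The summed naive pluripotency list, from which Dppa3 was left out, had a rho of -0.255 with Dppa3 in Idoxuridine cells and 0.0285 in DMSO cells. Its median sum was 94, 83 and 78 UMIs over the 3 classes of Idoxuridine cells. General pluripotency genes had a rho of -0.175 with Dppa3, and -0.116 in DMSO. Single genes of the naive list ranged from -0.297 (Zfp42) and -0.205 (Tdh) over -0.0368 (Nanog) to 0.0371 (Fgfbp1), 0.0576 (Pecam1) and 0.0983 (Gbx2), and abundant genes such as Zfp42 and Tdh weigh most in the sum. The mean sum was 96.1 ± 28.4 UMIs in cells without Dppa3 and 79.7 ± 24.9 in those with 3 or more, a difference smaller than the SD over cells. Nuclear-retained RNAs, mitochondrial share and total UMIs had rho values of -0.0262, 0.0595 and 0.0917 with Dppa3 in the same cells.

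At the other end, the genes with the highest rho with Dppa3 in Idoxuridine cells were the ribosomal protein gene Rpl13a (0.238), Sp5 (0.224), a target and repressor in Wnt signalling, Pdlim4 (0.210), the claudin gene Cldn6 (0.203), Grrp1 (0.200), the piRNA pathway gene Tdrd12 (0.200), Khdc1a (0.198), Zscan5b (0.196), Ube2l6 (0.196) and a second claudin gene, Cldn3 (0.172). This order moved with the draw too, as Sp5 had 0.271 and Rpl13a 0.239 with a second thinning. Khdc1a belongs to the KH-domain genes related to Dppa5a. In DMSO the rho of these 10 genes with Dppa3 ran from 0.0105 (Ube2l6) to 0.122 (Sp5). In level, Pdlim4 (log2 ratio 3.71), Cldn6 (3.03), Khdc1a (4.32), Zscan5b (3.60) and Ube2l6 (4.40) were higher in Idoxuridine, and Cldn6, the most abundant of these 5 in DMSO, stood there at 6.74 CPM. Only genes seen in at least 10% of Idoxuridine cells were ranked. Pdlim4, Khdc1a, Zscan5b and Ube2l6 were seen in 1.96% to 3.14% of DMSO cells, and Grrp1 in 7.46%. Only their Idoxuridine level let these genes be ranked. Their direction is therefore no separate result, and their rho in DMSO rests on few cells. The 2-cell-embryo-like list had a rho of 0.158 with Dppa3 in Idoxuridine cells, but its summed median was 0 UMIs per cell.

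Dppa5a had the strongest partners of the 4 and had them in both libraries. Tdgf1, which encodes Cripto, a co-receptor for Nodal, had a rho of 0.372 with Dppa5a in Idoxuridine cells and 0.530 in DMSO cells. Chchd10 had 0.350 and 0.334, Ooep, an oocyte gene of the same KH family, 0.261 and 0.188, the creatine kinase gene Ckb 0.260 and 0.400, and the mitochondrial superoxide dismutase gene Sod2 0.258 and 0.234. Tdgf1 was also lower in Idoxuridine, with 406 CPM (399 to 413) against 626 in DMSO (618 to 634), as was Chchd10, with 228 CPM (222 to 233) against 395 in DMSO (389 to 401). The lowest were the RNA-binding protein gene Hnrnpk (-0.291 and -0.195), Gdi2 (-0.271 and -0.114), Sp5 (-0.241 and -0.153), the cortical actin linker gene Ezr (-0.239 and -0.126) and the translation factor gene Eif3e (-0.227 and -0.262). Sp5 thus stood among the 10 genes with the highest rho with Dppa3 and the 5 with the lowest rho with Dppa5a. Dppa5a had a rho of 0.350 with the summed general pluripotency list in Idoxuridine and 0.357 in DMSO, and 0.218 and -0.0100 with the naive list. Tdgf1 is itself in the general list. Total UMIs before thinning had a rho of 0.0713 with Dppa5a in Idoxuridine and 0.227 in DMSO; the part of depth in the DMSO values was not tested.

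For Dppa2 and Dppa4 the other leading genes moved with the draw. After Dppa4, Dppa2 had its highest rho with Aasdhppt (0.175, and 0.0642 with a second thinning), Mri1, Cd38 and Urgcp, and its lowest with Oaz1 (-0.142), Sncg, Hdgf, Prkaca and Tuba3a. Dppa4 had Lyplal1 (0.187, and 0.166 with a second thinning), the histone demethylase gene Kdm3a (0.169 and 0.159), the mitotic activator gene Cdc20 (0.167 and 0.110) and Ndufaf3 beside Dppa2. Its lowest after Dppa3 were the galectin gene Lgals1 (-0.150 and -0.136), Cdca4, Lss and Gltp. Over the 16 summed lists and both libraries, the rho farthest from 0 for either gene was 0.134, of Dppa4 with p53 targets in DMSO. Counting noise lowers rho for genes as sparse as these.

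**Figure D4:**
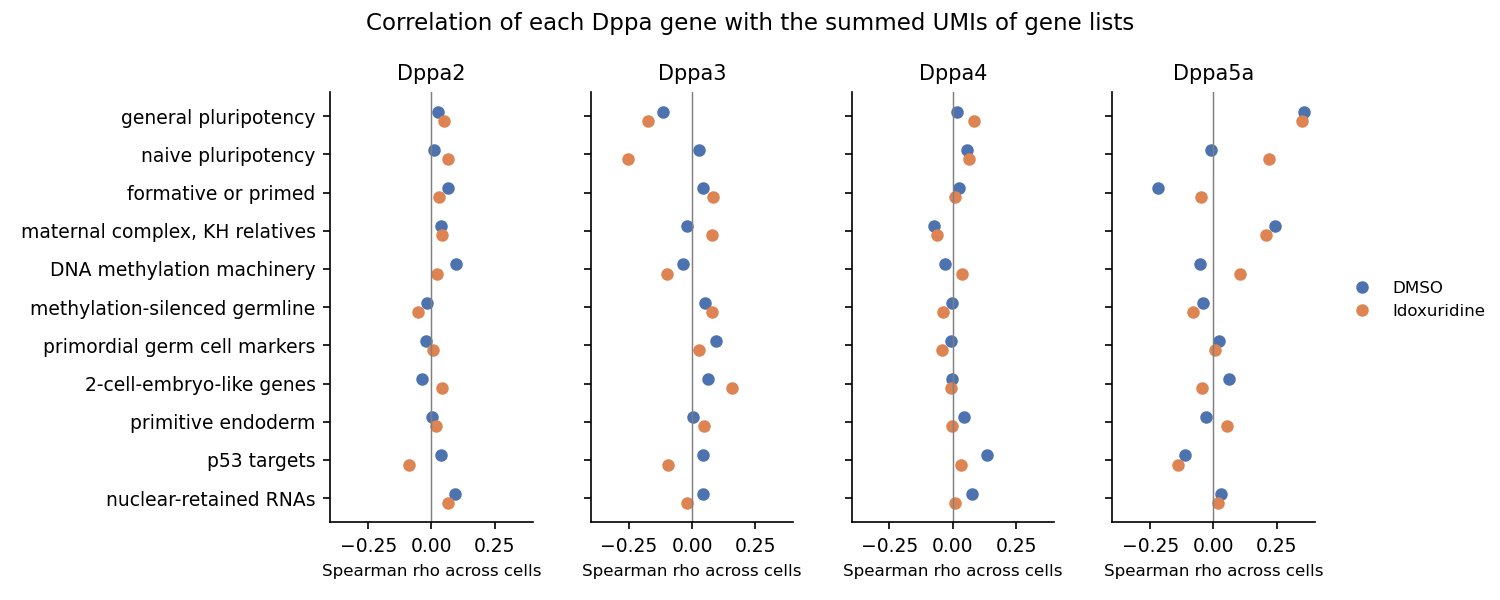
Spearman's rho across cells (x axis, 764 DMSO cells and 648 Idoxuridine cells) of each Dppa gene with the summed UMIs of 11 gene lists, at 23500 UMIs per cell. Dppa5a lies at 0.357 and 0.350 with general pluripotency, Dppa3 at -0.255 with the naive list in Idoxuridine cells, and Dppa2 and Dppa4 stay near 0. Dppa5a has the most UMIs per cell, and counting noise lowers rho for the sparser genes.

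None of the 6 measured genes nearest to Dppa3 on chromosome 6 had a difference of its size, and they went both ways. This region holds a cluster of genes known from pluripotent cells. Gdf3, a TGF-beta family ligand gene 16.3 kb away, was lower in Idoxuridine, with 283 CPM (277 to 289) against 559 in DMSO (552 to 567), or -0.98 in log2. Nanog, which encodes a core pluripotency factor and lies 77.2 kb to the other side, had a ratio of -0.40, and the glucose transporter gene Slc2a3 a ratio of 0.000148 (-0.21 with TMM). Apobec1 (0.70, but 0.49 with TMM, under the threshold), Mfap5 (1.19) and Foxj2 (1.39) were called higher, all from 10.3 CPM or less in DMSO. Of the 5 neighbours seen in at least 10% of Idoxuridine cells, Mfap5 had the rho with Dppa3 farthest from 0, at 0.0892.

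Beside the Dppa4 and Dppa2 pair, Morc1 was lower as well. Morc1 encodes a chromatin protein that silences transposons in male germ cells, and is the nearest measured gene after Dppa2, 112 kb further on. Idoxuridine had 172 CPM of Morc1 (167 to 176) against 302 in DMSO (296 to 307), or -0.81 in log2. Its rho was 0.134 with Dppa2 and 0.130 with Dppa4 in Idoxuridine cells, and -0.0341 and 0.00761 in DMSO cells. Further out, Pvrl3 (-0.41), Phldb2 (0.36), Dzip3 (0.23) and C330027C09Rik (-0.03) were called neither higher nor lower, and Gm4737 (0.93) was higher.

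Around Dppa5a on chromosome 9, Ooep lies 7.93 kb away and had 22.1 CPM (20.5 to 23.8) against 25.9 in DMSO (24.4 to 27.5), or -0.23 in log2. Gsta4, a glutathione transferase gene 158 kb away, was lower, with 279 CPM (274 to 286) against 561 in DMSO (553 to 568), and had a rho of 0.240 with Dppa5a in Idoxuridine cells and 0.206 in DMSO cells. Ick had a ratio of 0.08 (-0.13 with TMM) and C920006O11Rik one of -0.79 with overlapping intervals. Ddx43 (0.92) and the DNA sensor gene Mb21d1 (1.30) were called higher, from 1.32 CPM or less in DMSO.

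**Figure D5:**
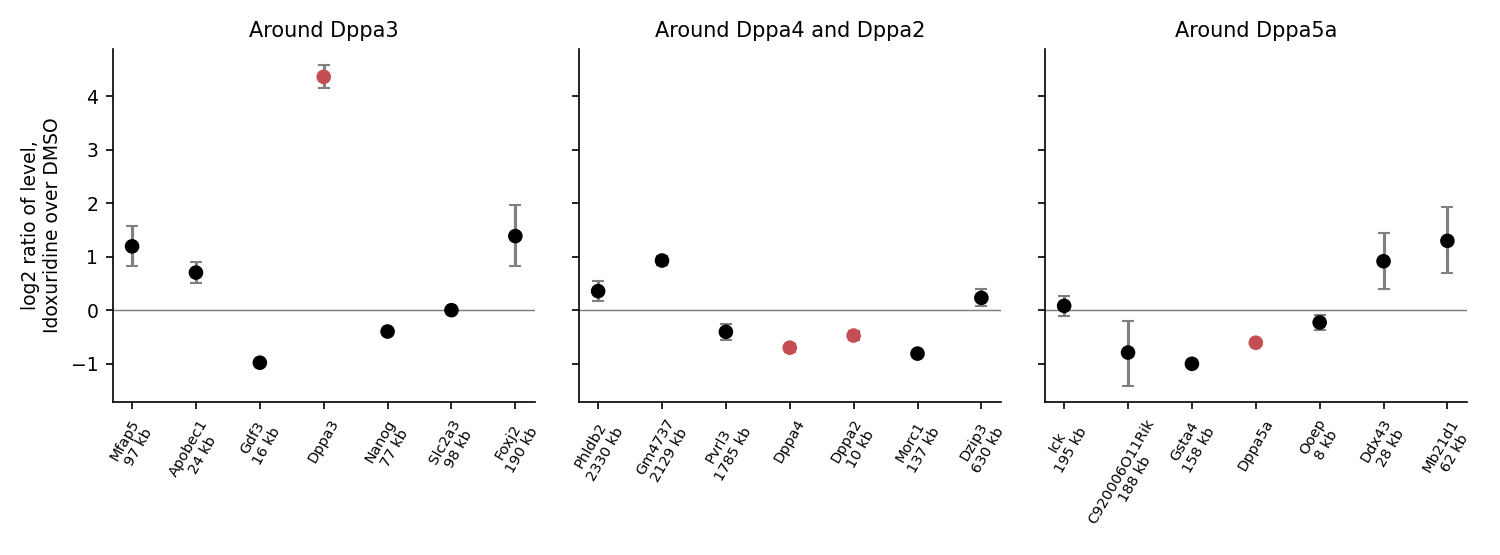
Log2 ratio of level (Idoxuridine over DMSO, bars are 95% counting intervals) for each Dppa gene (red) and the 3 nearest genes with at least 50 UMIs on either side, in chromosome order, with the distance in kb from Dppa3, Dppa4 or Dppa5a. Dppa3, at 4.37, stands apart from its neighbours, while Morc1 is lower like Dppa4 and Dppa2, and Gsta4 lower like Dppa5a.

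Lists of genes tied to the 4 proteins were read by the same call, among genes with at least 50 UMIs in the sum of the libraries. Of all 12629 such genes, 24.5% were called higher and 3.72% lower, with a median log2 ratio of 0.15. A gene near 0 in DMSO passes this minimum only through Idoxuridine, and can then only be called higher. The first list holds the machinery that Dppa3 acts on. Of 17 genes of DNA methylation and imprint protection, 3 were higher and 2 lower, and the median was 0.000590 (-0.21 with TMM). Uhrf1, the binding partner of Dppa3, had 181 CPM (177 to 186) against 198 in DMSO (193 to 202), or -0.12 in log2. Dnmt1 had a ratio of 0.14 (-0.07 with TMM). The de novo methyltransferase gene Dnmt3a was higher (1.45), as were Uhrf2 (0.73) and the methylcytosine oxidase gene Tet3 (0.71, but 0.497 with TMM, under the threshold). Tet1 (-0.52) and Zfp57 (-0.56), which encodes a guard of imprinted methylation, were lower. Across Idoxuridine cells Zfp57 had a rho of -0.167 with Dppa3.

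Among targets reported for Dppa2 and Dppa4, Syce1, a synaptonemal complex gene, was higher in Idoxuridine, with 14.3 CPM (12.9 to 15.7) against 7.25 in DMSO (6.45 to 8.13). Trap1a had 379 CPM (373 to 386) against 495 in DMSO (488 to 501), or -0.38 in log2. Mael had a ratio of 0.82 with overlapping intervals, and Nkx2-5, the fourth gene, had 4 and 14 UMIs. Syce1 and Mael are in the germline list below as well. Their downstream 2-cell-embryo genes were sparse in both libraries, with a summed level of 0.147 CPM in DMSO and 13.7 CPM in Idoxuridine. Of 28 such genes in the table, 24 had no UMI in DMSO and 11 none in Idoxuridine. Duxf3, the Dux gene of the table, had 0 and 1 UMI, and Zscan4c and Zscan4d each had 0 and 1. The only list member over 50 UMIs was Gm5662, with 3 and 314 UMIs, which makes up most of that difference. Of those under 50 UMIs, Gm2016 (0 and 39), Gm8300 (1 and 23) and Gm4027 (0 and 13) also had separate intervals, higher in Idoxuridine.

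Among relatives and partners of Dppa5a in the egg, the KH-domain genes Khdc1a (log2 ratio 4.32), Khdc1b and Khdc1c (6.66) were higher in Idoxuridine. Khdc1b had no UMI in DMSO and 92 in Idoxuridine, at least 41.1-fold higher against a floor of 3 counts in the DMSO library. These 3 are close copies of each other, so the split of their counts is uncertain. Khdc3, which encodes the maternal protein Filia, had 322 CPM (316 to 329) against 385 in DMSO (379 to 391), or -0.26 in log2. Of 9 measured genes of this list 5 were higher, the others being Tle6 (0.81) and Padi6 (4.59), and Nlrp4f (-0.55) was lower. Khdc1a (37 UMIs in DMSO and 551 in Idoxuridine), Khdc1b, Khdc1c (3 and 226) and Padi6 (3 and 54) passed the minimum only through Idoxuridine. Their direction is therefore no separate result. The list median was 0.81, also with Khdc1b at its bound, but -0.16 with a minimum of 200 UMIs.

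Dppa3 is also a marker of primordial germ cells, and other markers of these cells went both ways. Of 11 measured genes 5 were higher and 4 lower, with a median of 0.48. Tfap2c (0.98), Nanos3 (0.67, but 0.46 with TMM, under the threshold), Tdrd5 (1.64), Rhox6 (0.95) and Rhox9 (0.89) were higher, and Prdm1 (-0.90), the receptor gene Kit (-1.65), Ifitm3 (-0.78) and Alpl (-0.65) lower. Prdm14 stood at 8.38 and 7.19 CPM, a ratio of -0.22. The summed markers had a rho of 0.0269 with Dppa3 in Idoxuridine cells. Of 18 measured germline genes known to be silenced by methylated promoters, 15 were called higher, with none lower and a median of 1.94, the same direction as Dppa3. Some of them, such as Sycp1 (3 UMIs in DMSO and 55 in Idoxuridine) and Tex101 (6 and 265), passed the minimum only through Idoxuridine. The direction of such genes is no separate result. Across Idoxuridine cells, however, the summed germline list had a rho of 0.0766 with Dppa3. Dazl, which encodes a translation regulator of germ cells, had one of 0.0263. Dazl had a mean of 2.34 ± 6.00 UMIs in Idoxuridine cells without Dppa3 and 2.48 ± 5.44 in those with 3 or more Dppa3 UMIs.

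The pluripotency lists set Dppa2, Dppa4 and Dppa5a beside other genes of the same state. Of 18 naive genes 1 was higher and 6 were lower (median -0.41), and of 13 general pluripotency genes 3 were higher and 4 lower (median -0.36). The ratios of Dppa4 (-0.70) and Dppa5a (-0.61) lay below both medians and that of Dppa2 (-0.48) as well, while Dppa3 (4.37) lay far above them. These counts depend on the scaling. With TMM the 2 list medians were -0.62 and -0.57. Zfp42 (-0.60), Nanog (-0.61) and Pou5f1 (-0.57), for example, then exceeded 0.5 in size, while Sall4 (0.40) and Lin28a (0.41) fell below it. Lists of other lineages and states had more genes called higher than lower, as had all 12629 genes (24.5% against 3.72%): 7 against 1 of 11 formative or primed genes, 9 against 0 of 11 primitive endoderm genes, 4 against 0 of 8 trophectoderm, of 6 mesendoderm and of 5 neuroectoderm genes each, 12 against 0 of 24 p53 targets, and 3 against 1 both of 7 fibroblast genes and of 6 nuclear-retained RNAs. Several of the lineage genes, such as Gata6 (5 UMIs in DMSO and 65 in Idoxuridine), Krt7 (5 and 83), Wnt3 (19 and 207) and Map2 (18 and 94), passed the minimum only through Idoxuridine. Such genes could only be called higher, so the lack of lower calls is in part set by that minimum. Whether the differences in these lists have a part in those of the Dppa genes was not tested.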

How the data were processed

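Single-cell RNA libraries (10x Chromium 3′ V2, per the labels' protocols) were made from 1 DMSO and 1 Idoxuridine culture. The submitters' processing notes name Cell Ranger 2, Seurat and mm10, with no role given. The deposited values are raw UMI counts per gene and cell. How the authors chose barcodes as cells was not given in the sources used here. Every barcode in the files was kept and no doublet caller was run; leaving out the 5% of cells with most UMIs and those over 10% mitochondrial was an alternative. Groups were taken from the treatment label. Coordinates are from GENCODE M21 on GRCm38, where 98.7% of gene identifiers were found.

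UMIs were summed per library and scaled to 10⁶ (CPM), with exact Poisson intervals and exact conditional binomial intervals of ratios (95%). PCR copies are removed by UMIs, and intervals cover counting error only. Cells were thinned to 23500 UMIs, by exact expectation for shares (Clopper-Pearson intervals) and Fano factors, and by 1 seeded draw for correlations and cell counts. The rule named the 4 members, other Dppa genes, the 10 (Dppa3) or 5 genes with the highest and the lowest rho in Idoxuridine cells, up to 4 genes per list and 3 neighbours a side. List members named beyond that were chosen after their values were seen. Of 235 list entries 4 were not found in the table. The genes and lists were chosen with earlier results of these data known. Scripts (Python 3.11.15, scipy 1.17.1, and edgeR 4.0.16 for TMM) were tested on simulated data. Alternatives changed the scaling, the UMI minimum, the fixed depth, the random draw, the measure of spread and the cells kept.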

Additional observations from a re-analysis of the deposited data

How the results depend on the processing

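No paired analysis was possible because each treatment has 1 library and no replicate number links them. The direction of the level difference was kept by all 4 genes under 6 alternatives each. TMM scaling gave log2 ratios of 4.16 (Dppa3), -0.69 (Dppa2), -0.91 (Dppa4) and -0.82 (Dppa5a), and median-of-ratios -0.56 (Dppa2), -0.79 (Dppa4) and -0.70 (Dppa5a). With each cell weighted equally Dppa3 had 4.01 and Dppa5a -0.54, and totals without mitochondrial and ribosomal protein genes gave Dppa5a -0.59. Genes called higher numbered 1947, and 1259 with TMM, 4189 with no UMI minimum and 678 with a minimum of 1000. Those called lower numbered 436, and 1262 with TMM, 669 with median-of-ratios and 287 with the minimum of 1000. The higher share of calls was 81.7%, 49.9% with TMM and 70.4% with median-of-ratios.

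The difference in the percent of cells with a UMI was 50.8 points for Dppa3, and 42.0 at 15000 UMIs and 37.0 for at least 2 UMIs. For Dppa4 it was -17.9, and -13.9 unthinned and -29.0 for at least 2 UMIs. The log2 Fano ratio of Dppa3 was 1.28, and 1.67 with raw UMIs, 1.01 at 15000 UMIs and -2.48 as counting-corrected CV². For Dppa4 it was -0.0694 with raw UMIs and 2.35 as CV², for Dppa5a -0.80 and 1.03, and for Dppa2 1.46 as CV². The rho of Dppa3 and Dppa2 in Idoxuridine cells was 0.0501 within the third of cells lowest in nuclear-retained RNAs. The cause of these changes was not tested. List medians changed sign in 3 cases: maternal complex and KH genes (-0.16) and fibroblast genes (-0.46) with a minimum of 200 UMIs, where fewer genes remain, and DNA methylation genes (-0.21) with TMM. Leaving out the shared barcodes and taking rho on unthinned CPM were chosen after seeing the data. Without the shared barcodes Dppa3 had a level ratio of 4.37 and a rho of -0.149 with Dppa4 in Idoxuridine cells. On unthinned CPM the rho of Dppa2 and Dppa4 in Idoxuridine cells was 0.282 in place of 0.183, and that of Dppa2 and Dppa5a in DMSO cells -0.0864 in place of 0.00678. With 1 library per treatment, depth limits Dppa3 in DMSO most, where 194 UMIs carry its level.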
